A study of Arabidopsis thaliana with 9 samples.

Results

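The genes of nitrate transport and reduction described here are 10 of the 32833 genes in the deposited count table, chosen by name because their products move nitrate across membranes or reduce it. They are the transporter genes NRT1.1 (AT1G12110), NRT1.5 (AT1G32450), NRT2.1 (AT1G08090), NRT2.2 (AT1G08100), NRT2.3 (AT5G60780) and NRT2.5 (AT1G12940), the transporter partner NRT3.1 (AT5G50200), the nitrate reductase genes NIA1 (AT1G77760) and NIA2 (AT1G37130) and the nitrite reductase gene NIR1 (AT2G15620). All 10 were found in the table. A filter on low counts kept 7 of them for testing and left out NRT2.1, NRT2.2 and NRT2.5.

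Plants take up nitrate through transporters of the NRT1 and NRT2 families. NRT1.1 works at both low and high nitrate and also acts as a nitrate sensor, whereas NRT2 proteins serve uptake at low nitrate and most of them need the small partner protein NRT3.1 to reach the plasma membrane. Inside the cell nitrate reductase, which carries a molybdenum cofactor, makes nitrite in the cytosol, and nitrite reductase turns nitrite into ammonium in plastids with electrons from ferredoxin. Ammonium is then built into glutamine and glutamate. Nitrate itself raises transcription of many of these genes through NLP transcription factors.

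The samples were callus, the mass of dividing cells that cut plant tissue forms on hormone medium, from Arabidopsis thaliana. All 3 genotypes were grown alike from hypocotyl pieces of etiolated seedlings, with 4 days on callus induction medium followed by 10 days on shoot induction medium. Wild type (Col-0), a pnet1 mutant and a PNET1 overexpression line each gave 3 RNA libraries. PNET1 sits in the membrane of the nuclear envelope in plant cells. The sources used here do not spell out the allele of the mutant, and its column names were read as 1 allele with 3 replicates. The promoter that drives the overexpressed gene is not named, and the labels speak of 1 overexpression line. The comparisons ask what losing PNET1 and what raising it does to the transcripts of nitrate transport and reduction. The labels do not say whether the replicates came from separate cultures, and a p-value here reflects library-to-library spread that may be technical.

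Counts per library totalled 16890848 to 19493969. PNET1 (AT1G07970) stood at 28.9 to 32.7 CPM (counts scaled to library size) in wild type, 1.1 to 1.5 in mutant and 4588 to 5211 in overexpression callus, so it followed the labels. The first principal component, with 67.7% of the variance, set the mutant at 44.4 to 51.2. Wild-type replicate 3 (-1.57) and overexpression replicate 1 (-23.2) lay nearest to it within their groups. The 8 callus markers summed to 473 to 506 CPM (wild type), 555 to 603 (mutant) and 467 to 505 (overexpression). They did not move together. Of the 5 that edgeR tested, 2 rose and 1 fell in the mutant, with log2 fold changes of -0.90 to 0.77. In the overexpression line 1 rose and 1 fell against wild type. Between the lines 1 was higher and 1 lower in the overexpression line, at -1.11 to 1.57. LBD29 and PLT1 had 0 counts in wild type and LBD29 also in the overexpression line. The 7 markers of leaf mesophyll, a tissue of the green shoots that this medium induces, summed to 2017 to 2688 CPM in wild type, 953 to 1048 in mutant and 2643 to 3784 in overexpression callus, with 0 markers at 0. All 7 fell in the mutant by the edgeR test used below, and 0 of 7 passed in the overexpression line. In bulk tissue, fewer cells of a type and less RNA per cell cannot be told apart.

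NLP proteins bind a pair of short arms, CTT and AAG, spaced by 10 bases, known as the nitrate-responsive element. This pattern (CTT, any 10 bases, AAG), which reads the same on both strands, was searched in the 1000 bases before each start codon. It occurred in 2 of the 10 genes, NRT1.5 and NIR1, and in 8740 of 27443 genes (31.8%) over the whole genome. The sites are shown because they are the only matches in the set, and a link between them and the levels of the 2 genes was not tested. The sequences are from the RefSeq TAIR10.1 genome, on the strand of the gene, with the arms in capitals.
NRT1.5 site: atgtaaCTTcaggaatagaAAGatattc
NIR1 far site: ttaaaaCTTaagaatactaAAGtatgaa
NIR1 near site: ttgaccCTTtacattgctcAAGagctca
The coordinates below span the 28 bases shown, and distances are counted from the first base of the CTT arm. The NRT1.5 site lies at chr1:11720476-11720503 on the minus strand, 690 bases before the start codon. The NIR1 far site is at chr2:6809737-6809764 on the plus strand, 809 bases before the start codon. The near site, at chr2:6810457-6810484, is 89 bases before the start codon, and its CTT arm begins 68 bases past the annotated gene start, inside the 5′ leader. A match is a run of letters and not a measured binding site, and no match in the other 8 genes says only that these letters are not in that window.

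NRT2.1 and NRT2.2 are neighbours on chromosome 1, in opposite orientation, and are alike enough to bear on their counts. Their coding sequences are 89.4% identical and share an unbroken run of 170 bases, printed here because a read that lies within it could have come from either gene.
NRT2.1 and NRT2.2 shared run: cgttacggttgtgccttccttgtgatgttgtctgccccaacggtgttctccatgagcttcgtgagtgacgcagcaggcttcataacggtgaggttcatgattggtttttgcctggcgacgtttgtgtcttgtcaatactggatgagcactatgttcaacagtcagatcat
The run is at chr1:2524520-2524689 on the plus strand in NRT2.1 and at chr1:2528534-2528703 on the minus strand in NRT2.2, in the TAIR10.1 assembly. The next most alike pair in the set is NIA1 and NIA2, whose coding sequences are 73.8% identical with a longest shared run of 20 bases. NRT2.3 is 81.9% identical to its closest relative NRT2.6, with a longest shared run of 24 bases. NRT1.5 overlaps PKP3, on the other strand, by 16 bases, and the sources used here do not state a strand setting for the counting.

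The level of a gene relative to other genes was read from the deposited FPKM values, which divide by gene length. In wild type the reduction enzymes stood highest. NIA2 had 303 ± 18.5 FPKM (SD, n = 3), NIA1 154 ± 9.97 and NIR1 80.8 ± 3.38, and NRT1.1 led the transporters at 49.0 ± 3.79. NRT3.1 followed at 7.31 ± 1.16 FPKM and NRT2.3 at 1.1 ± 0.39. NRT2.1 (0.300 ± 0.120), NRT1.5 (0.224 ± 0.0900) and NRT2.5 (0.0999 ± 0.0665) were lower still, and NRT2.2 was listed at 0. The libraries of neighbours in this order did not overlap, except those of NRT2.1 with NRT1.5 and of NRT1.5 with NRT2.5. NIA2 thus stood 1.97 times as high as NIA1 and 273 times as high as NRT2.3.

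**Figure D1:**
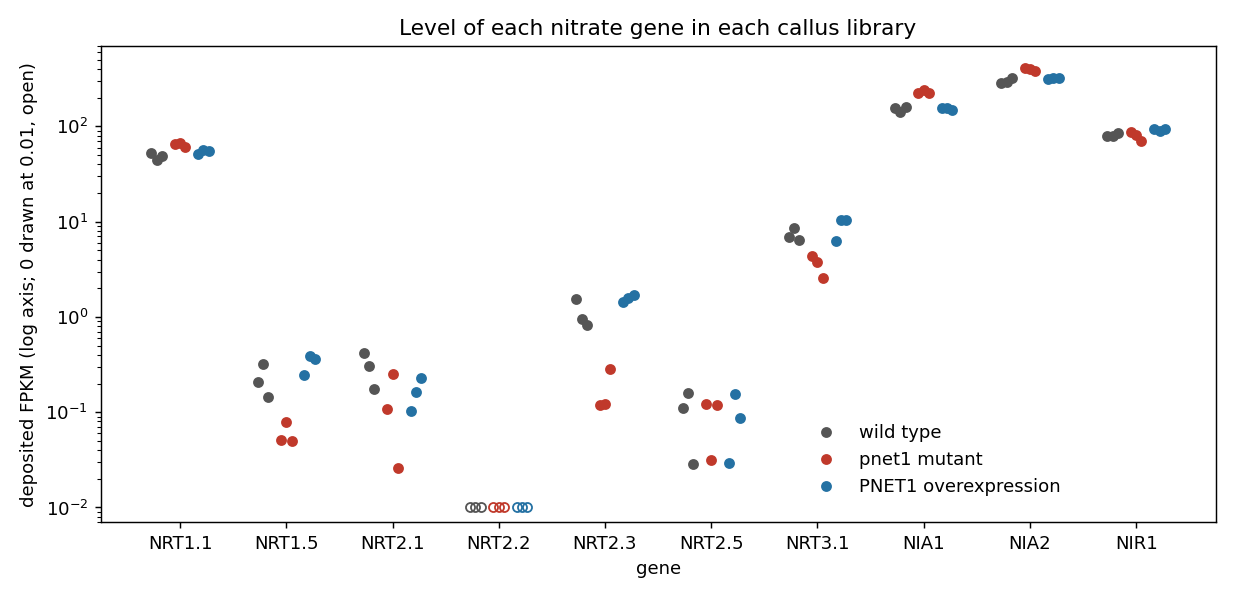
Deposited FPKM (log axis) of the 10 nitrate genes in each of the 9 libraries, 1 point per library, coloured by genotype, with values of 0 drawn as open points at the foot. NIA2, NIA1, NIR1 and NRT1.1 sit highest in all 3 genotypes, and the points of NRT1.5, NRT2.3 and NRT3.1 lie lower in the mutant libraries than in the others.

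The top of this order was shared by the genotypes, and its foot was not. In both lines NIA2, NIA1, NIR1, NRT1.1, NRT3.1 and NRT2.3 kept these ranks. In the mutant NRT2.3 had come down to 0.175 ± 0.0949 FPKM and its libraries overlapped those of NRT2.1 (0.128 ± 0.114). NRT1.5, at 0.0601 ± 0.0169 FPKM, was below NRT2.5 there, with overlapping libraries. In the overexpression line NRT1.5 (0.334 ± 0.0753 FPKM) stood above NRT2.1 (0.166 ± 0.0633) without overlap. Of the summed FPKM of the 6 transporter genes, NRT1.1 made up 96.6% ± 0.977 in wild type, 99.3% ± 0.0844 in mutant and 96.2% ± 0.391 in overexpression callus.

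Losing PNET1 came with more transcript of nitrate reductase and of NRT1.1, and with less of NRT2.3 and NRT3.1. Of the 7 genes tested in the mutant against wild type, 3 rose, 3 fell and NIR1 did not pass the test. One of the falls, that of NRT1.5, is of a gene that passed the filter on low counts through the overexpression libraries. NRT2.3 passed it through the wild-type and overexpression libraries, and 0 mutant libraries reached the filter's level. With only the 6 wild-type and mutant libraries 6 genes were tested, of which 3 rose and 2 fell. Over all 19698 genes tested, 30.0% passed in this comparison, 12.6% higher and 17.4% lower. The median log2 fold change of the 7 genes was -0.03, which is the value of NIR1 itself, against 0.00037 over all genes tested. Tests are edgeR's quasi-likelihood test on counts with Benjamini-Hochberg adjustment over all genes tested, and a gene passes at an adjusted p under 0.05. The summed CPM of the 10 genes was 1701 to 1867 in wild type, 2221 to 2386 in mutant and 1834 to 1856 in overexpression callus.

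NIA1 is the nitrate reductase gene with the lower transcript level in this tissue. It lies on chromosome 1 at 29235721 to 29239484 of TAIR10, with 4 exons. Wild-type libraries had 501, 455 and 514 CPM, mutant libraries 709, 764 and 705, and overexpression libraries 493, 496 and 468. The 3 mutant libraries were above all libraries of the other genotypes, and wild type and overexpression overlapped. In the mutant NIA1 rose 1.48-fold (log2 fold change of 0.57, SE 0.049; adjusted p = 9.3e-07 in edgeR).

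NIA2, the major nitrate reductase gene, was likewise highest in the mutant. It has 3 exons at 14158452 to 14161938 on chromosome 1 and codes for 917 amino acids, as NIA1 does. Its CPM values were 933, 957 and 1046 in wild type, 1305, 1289 and 1222 in mutant and 1022, 1020 and 1022 in overexpression callus. The mutant libraries again stood apart, and the 3 overexpression libraries lay within the wild-type range. The rise in the mutant was 1.30-fold (log2 fold change of 0.38, SE 0.045; adjusted p = 1.2e-05 in edgeR).

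NIR1, whose product takes the nitrite that nitrate reductase makes, did not follow the reductases. The gene lies on chromosome 2 at 6810395 to 6812941 and has 4 exons and both of the near and far element matches printed above. Wild-type libraries had 175, 174 and 187 CPM, mutant libraries 190, 180 and 155, and overexpression libraries 209, 198 and 205. Mutant and wild type overlapped, and the overexpression libraries were all above both. In the mutant the log2 fold change was -0.03 (SE 0.062; adjusted p = 0.77 in edgeR).

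The ratio of nitrate reductase to nitrite reductase transcript was highest in the mutant libraries. The summed FPKM of NIA1 and NIA2 over that of NIR1 was 5.65, 5.58 and 5.74 in wild type, 7.28, 7.85 and 8.57 in mutant and 5.00, 5.27 and 5.01 in overexpression callus. The 3 genotypes did not overlap, with the mutant highest and the overexpression line lowest. Means were 5.66 ± 0.0777, 7.90 ± 0.644 and 5.09 ± 0.152 (SD, n = 3). A two-sided exact permutation test gave p = 0.1 for each of the 3 pairs of genotypes, which is the smallest value that 3 libraries against 3 allow, and 0.15 after Benjamini-Hochberg adjustment over the 18 ratio and level comparisons made this way. Without any single library the difference between mutant and wild type lay between 1.91 and 2.55, and that between overexpression and wild type between -0.656 and -0.522. NIA1 made up 33.7% ± 1.43 of nitrate reductase FPKM in wild type, 36.7% ± 1.02 in mutant and 32.6% ± 0.723 in overexpression callus, with exact permutation p = 0.1 (adjusted 0.15) for the mutant against wild type and p = 0.4 (adjusted 0.45) for overexpression against wild type.

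**Figure D2:**
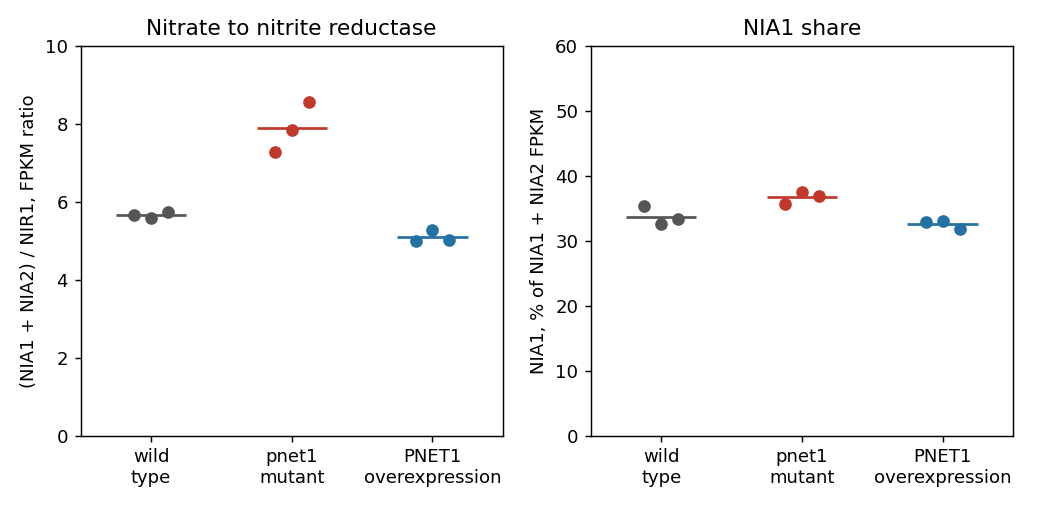
Left, ratio of summed NIA1 and NIA2 FPKM to NIR1 FPKM in each library; right, NIA1 as a percentage of summed NIA1 and NIA2 FPKM. Points are libraries and lines are the means of 3; the ratio is 7.28 to 8.57 in the mutant and 5.00 to 5.74 in the other libraries.

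NRT1.1, the dual-affinity transporter and nitrate sensor, also rose in the mutant. It has 5 exons at 4105223 to 4109601 on chromosome 1. Wild-type libraries had 116, 99.9 and 110 CPM, mutant libraries 144, 147 and 136, and overexpression libraries 114, 124 and 120. The mutant libraries lay above all others, while wild type and overexpression overlapped. The rise was 1.31-fold (log2 fold change of 0.39, SE 0.055; adjusted p = 5.4e-05 in edgeR).

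NRT2.3 had the largest change of the set. It is a member of the NRT2 family with 3 exons at 24450745 to 24452964 on chromosome 5. It had 58, 31 and 30 counts in wild type, 4, 4 and 10 in mutant and 50, 53 and 61 in overexpression callus, or 3.01, 1.85 and 1.59, then 0.228, 0.236 and 0.549, then 2.77, 3.03 and 3.29 CPM. Each mutant library was below each library of the other genotypes, and wild type and overexpression overlapped. NRT2.3 fell by 2.64 on the log2 scale in the mutant (SE 0.37; adjusted p = 5.4e-05 in edgeR). Leaving out any 1 library gave between -3.18 and -2.31. All 3 wild-type and all 3 overexpression libraries reached the low-count filter's level of about 0.558 CPM, and 0 mutant libraries did. The filter thus kept NRT2.3 through the groups where it was high.

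NRT3.1, the partner that NRT2 transporters need, fell as well. It has 2 exons at 20436180 to 20437815 on chromosome 5 and codes for 210 amino acids. Its libraries had 9.18, 11.4 and 8.45 CPM in wild type, 5.82, 4.96 and 3.35 in mutant and 8.31, 13.6 and 13.7 in overexpression callus. The mutant libraries did not overlap the others, and overexpression replicate 1 lay just below the wild-type libraries while replicates 2 and 3 lay above them. The fall in the mutant was 1.04 on the log2 scale (SE 0.25; adjusted p = 0.011 in edgeR).

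NRT1.5, which loads nitrate into the root xylem for transport to the shoot, was scarce in this tissue. The gene lies at 11715147 to 11719988 on chromosome 1, with 6 exons. It had 9, 12 and 6 counts in wild type, 2, 3 and 2 in mutant and 10, 15 and 15 in overexpression callus, or 0.467, 0.718 and 0.319, then 0.114, 0.177 and 0.110, then 0.554, 0.858 and 0.808 CPM. The mutant libraries were the lowest 3 of the 9, and the other genotypes overlapped. It fell by 1.84 on the log2 scale in the mutant (SE 0.57; adjusted p = 0.020 in edgeR). The filter asked for about 0.558 CPM in 3 libraries, which wild-type replicate 2 and the 3 overexpression libraries reached. NRT1.5 was thus not tested with only the 6 wild-type and mutant libraries, nor with a filter of 1 CPM. The call rests on few counts and ended with DESeq2 (adjusted p = 0.057) and, in edgeR, without wild-type replicate 2 (0.10), mutant replicate 1 (0.068) or mutant replicate 3 (0.068).

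**Figure D3:**
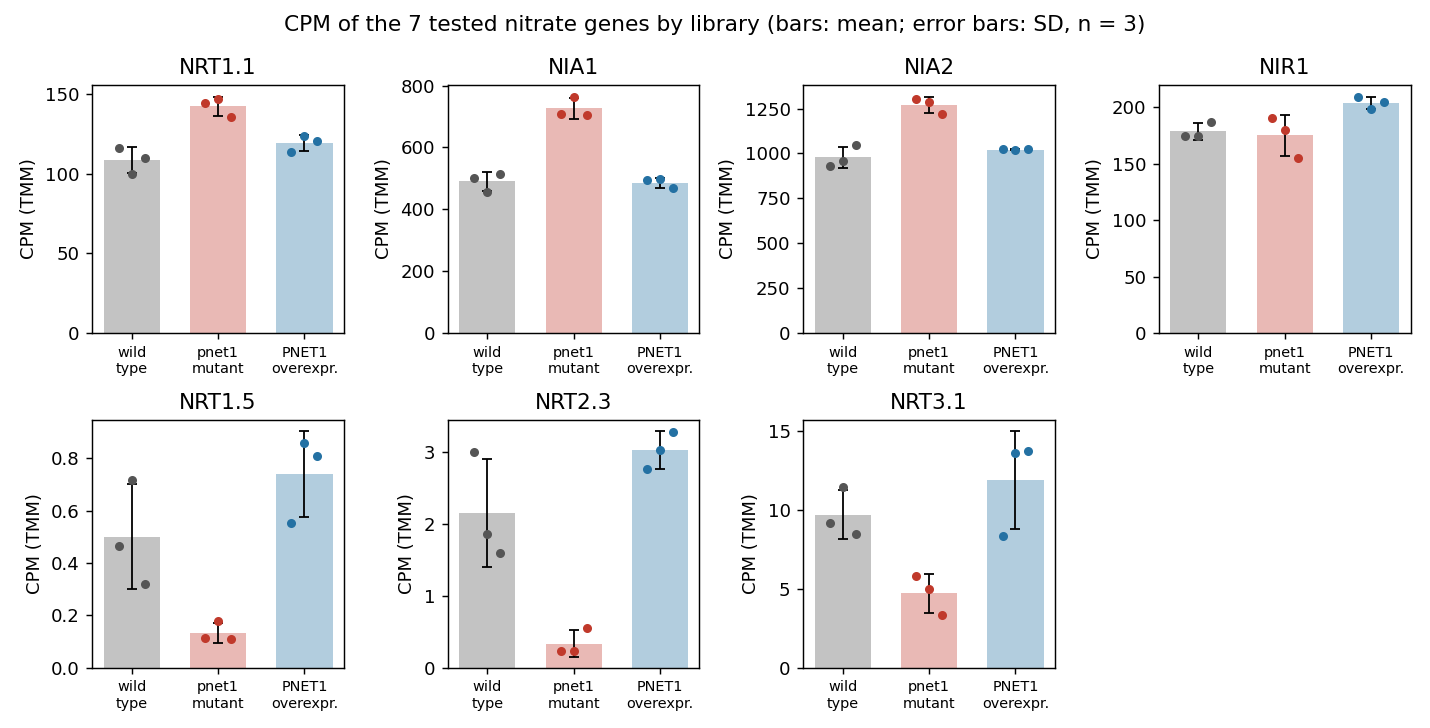
CPM of the 7 tested nitrate genes by genotype, 1 panel per gene with its own axis from 0; points are libraries, bars are means and error bars are SD (n = 3). Mutant libraries stand above the others for NRT1.1, NIA1 and NIA2 and below them for NRT1.5, NRT2.3 and NRT3.1.

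Wild-type replicate 3 was the lowest wild-type library for NRT1.5, NRT2.3 and NRT3.1, and overexpression replicate 1 was the lowest of its group for all 3. These are the libraries nearest to the mutant on the first principal component. The mesophyll markers given above fell in the mutant, as these 3 genes did, whereas NIA1, NIA2 and NRT1.1 rose. Endodermis markers, a cell type that surrounds the root vasculature, summed over 4 genes to 15.6 to 18.6 CPM in wild type, 8.50 to 10.7 in mutant and 21.2 to 26.6 in overexpression callus, with 0 of 4 markers at 0 in any group and CASP1 at 3 to 6 counts per genotype. These sums were lowest in the mutant and highest in the overexpression line, without overlap. Of the 3 tested, SCR fell in the mutant and rose in the overexpression line in edgeR (log2 fold changes of -0.97 and 0.51), and the 3 had -0.97 to 0.28 in the mutant. Xylem markers summed to 44.0 to 61.5, 48.2 to 69.0 and 38.5 to 53.9 CPM, with 0 of 3 at 0. One of them, XCP1, rose in the mutant (log2 fold change of 0.77), and the 3 had -0.75 to 0.77. The single phloem companion cell marker, SUC2, stood at 64.4 to 75.2 CPM in wild type, 84.9 to 102 in mutant and 71.7 to 78.1 in overexpression callus and rose in the mutant by 0.40 on the log2 scale, as NIA1, NIA2 and NRT1.1 did. Between the lines, relative to the mutant, SCR was higher by 1.48 on the log2 scale, while XCP1 had -1.26, VND7 -0.71 and SUC2 -0.31, all called. Neither list moved as 1 there. The 3 tested endodermis markers had -0.47 to 1.48, with 1 called. The 3 xylem markers had -1.26 to 0.83, with 2 called. The 4 root epidermis and root hair markers summed to 9.33 to 9.91, 9.58 to 11.5 and 8.68 to 14.0 CPM, also with 0 at 0. The part that these cell types have in the results on nitrate genes was not tested.

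The remaining transporter genes gave too few counts to test. NRT2.1, the main high-affinity transporter of roots, had 17, 11 and 7 counts in wild type, 4, 9 and 1 in mutant and 4, 6 and 9 in overexpression callus, so the groups overlapped. Fitted without the filter, its log2 fold change in the mutant was -1.24 (SE 0.57; adjusted p = 0.12 in edgeR). Leaving out 1 library let it pass the filter in 7 fits, and it was called in 1 of them, without mutant replicate 2 (log2 fold change -2.13, edgeR adjusted p = 0.032), against adjusted p values of 0.060 to 0.36 in the others. NRT2.5, known from nitrogen-starved plants, had 4, 5 and 1 counts in wild type, 4, 1 and 4 in mutant and 1, 5 and 3 in overexpression callus, with a log2 fold change in the mutant of -0.11 without the filter (edgeR adjusted p = 0.97). NRT2.2 had 0 counts in all 9 libraries, which allows a level of up to 0.156 to 0.180 CPM per library at 3 counts. This limit covers counting error only and does not cover reads in the run shared with NRT2.1, for which the sources used here state no rule of assignment.

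In the overexpression line against wild type, 0 of the 7 tested genes passed in edgeR, where 11.2% of all genes did, 5.97% higher and 5.24% lower. NRT1.1 and NIR1 had an unadjusted p under 0.05 in edgeR. The share of all genes at that threshold was not taken, so this is not read as a result. DESeq2 called 1 of the 9 it fitted, NIR1, and 1980 of all 25597 genes fitted. The median log2 fold change of the 7 genes was 0.19, which is the value of NIR1 itself, against -0.0016 over all genes tested. The 7 include NRT1.5, which the filter kept through the overexpression libraries. This comparison uses the same wild-type libraries as the one above, so the values of both are not independent.

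NIR1 came closest to the threshold, with all 3 overexpression libraries above all 3 wild-type libraries and a log2 fold change of 0.19 (SE 0.062; adjusted p = 0.061 in edgeR). Its adjusted p was 0.042 in DESeq2, 0.046 without the filter, 0.045 with a filter of 1 CPM and 0.032 with only the 6 libraries compared. It was also 0.038 without mutant replicate 1 and 0.020 without mutant replicate 3, which change the shared estimate of spread. NRT1.1 had a log2 fold change of 0.13 (SE 0.055; adjusted p = 0.13 in edgeR; 0.046 without wild-type replicate 1 and 0.032 without overexpression replicate 1). NRT3.1 had 0.30 (SE 0.22; adjusted p = 0.44 in edgeR; 0.034 without overexpression replicate 1).

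The other 4 genes did not pass under any alternative tried. NRT1.5 had a log2 fold change of 0.58 (SE 0.40, edgeR adjusted p = 0.39) and NRT2.3 of 0.49 (SE 0.25, adjusted p = 0.24). The filter kept NRT1.5 through the 3 overexpression libraries and 1 wild-type library, so its value is given as a description. NIA2 had 0.06 (SE 0.045; adjusted p = 0.41 in edgeR). NIA1 had -0.01 (SE 0.049; adjusted p = 0.90 in edgeR), a sign that turned to 0.0045 with scaling by library totals only. With SE values of 0.40 and 0.25, a change of the size that NIA1 had in the mutant would not be detectable at this depth for NRT1.5 or NRT2.3.

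**Figure D4:**
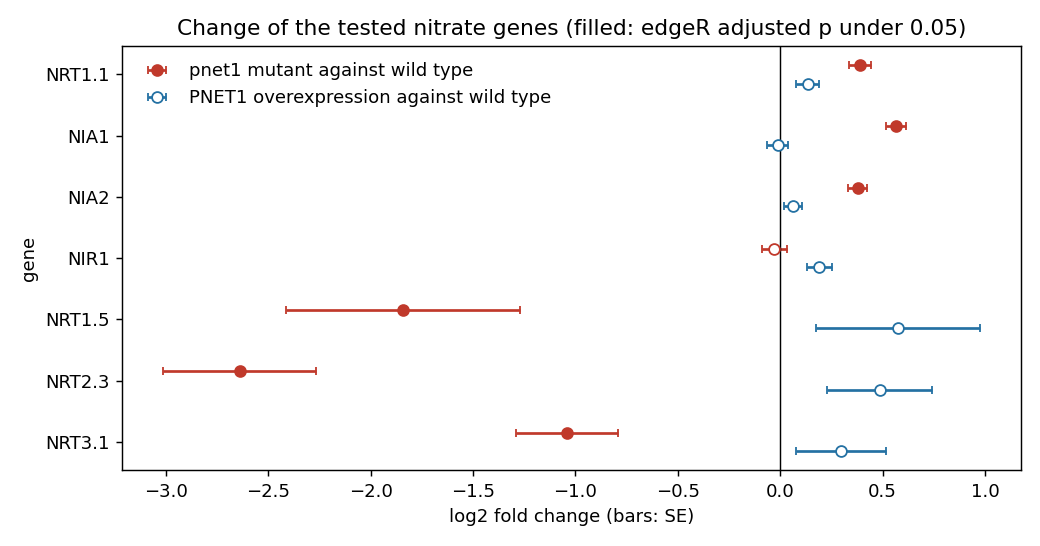
Log2 fold change against wild type of the 7 tested nitrate genes in the mutant (red) and in the overexpression line (blue), with bars of 1 SE and filled points for an edgeR adjusted p under 0.05. In the mutant values run from -2.64 to 0.57 with 6 filled points, and in the overexpression line from -0.01 to 0.58 with none. The 0.58 is that of NRT1.5, which the filter on low counts kept through the overexpression libraries.

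The direct comparison of the overexpression line with the mutant called NRT2.3, NRT3.1 and NIR1 as higher and NIA1, NIA2 and NRT1.1 as lower, where 43.5% of all genes passed, 23.0% higher and 20.6% lower. With only the 6 libraries compared, these 6 genes were tested and 6 were called. The comparison shares its libraries with both comparisons above. NRT2.3 was higher by 3.13 on the log2 scale (edgeR adjusted p = 1.5e-06), NRT3.1 by 1.34 (0.0013) and NIR1 by 0.22 (0.0094). The filter kept NRT2.3 through the wild-type and overexpression libraries, with 0 mutant libraries at the filter's level. NRT1.5 was higher by 2.42 (0.0011), a value given as a description because the filter kept the gene through the overexpression libraries. NIA1 fell by 0.58 (edgeR adjusted p = 6.8e-08), NIA2 by 0.32 (1.7e-05) and NRT1.1 by 0.26 (9.2e-04). NIR1 is the gene that passed here and in neither comparison with wild type.

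Among 79 other tested genes of the set and of the nitrogen lists below, the gene whose log2 CPM ran closest to each of the 7 over the 9 libraries was named by Pearson's r, as a description of libraries that share their genotypes. NRT1.1 was closest to CPK32 (r = 0.952), a calcium-dependent kinase of nitrate signalling. NRT1.5 was closest to GLU1 (0.974), the ferredoxin-dependent glutamate synthase, NRT2.3 to NRT1.7 (0.971), a phloem-loading nitrate transporter, and NRT3.1 to CLCB (0.953), a chloride channel family member. NIA1 was closest to CNX2 (0.963), which acts in the first step of molybdenum cofactor synthesis, and NIA2 to NIA1 (0.950). NIR1 was closest to UPM1 (0.872), which acts in the synthesis of siroheme, the cofactor of nitrite reductase. Within the set, NIA1 and NRT2.3 had the most negative r (-0.944).

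The rest of the nitrogen pathway was read from 5 lists that hold 86 genes, 73 of them tested. In the mutant 17 rose and 20 fell (50.7%, against 30.0% of all genes), with a median log2 fold change of 0.02. Of 14 other nitrate transporters and channels 6 fell and 1 rose, of 2 tested ammonium transporters both fell, of 13 assimilation genes 5 fell and 2 rose, and of 16 genes for reducing power and cofactors 3 fell and 4 rose. Of 28 nitrate signalling regulators 10 rose and 4 fell.

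Among transporters NRT1.7 went from 32.5, 27.8 and 21.3 CPM in the wild-type libraries to 9.75, 9.74 and 9.61 in the mutant (log2 fold change of -1.49, SE 0.18; adjusted p = 3.5e-04 in edgeR). CLCB had a log2 fold change of -0.81, and its call ended without wild-type replicate 2 (edgeR adjusted p = 0.13) or 3 (0.065) or mutant replicate 1 (0.085) or 3 (0.14). SLAH3, an anion channel, had -0.46 and NRT1.12, which moves nitrate in leaf veins, -0.42. The ammonium transporters AMT1;2 and AMT2 had -1.30 and -0.44. These are log2 fold changes in the mutant that all passed.

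Assimilation genes that fell were led by the plastid enzymes. GLU1 had 195, 187 and 146 CPM in the wild-type libraries and 68.2, 88.0 and 64.0 in the mutant (log2 fold change of -1.27, SE 0.22; adjusted p = 0.0062 in edgeR), and GLN2, the plastid glutamine synthetase, had a log2 fold change of -0.99. Both act in leaves, and mesophyll markers fell in the same libraries, but a link between these falls was not tested. ASN1, an asparagine synthetase, had -0.93, a call that ended without wild-type replicate 2 (edgeR adjusted p = 0.054) or mutant replicate 1 (0.070) or 2 (0.063). GDH1, a glutamate dehydrogenase, rose by 0.30.

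Of the regulators, BT2, a nitrate-responsive scaffold protein, fell by 1.30 on the log2 scale, LBD39, a repressor of nitrate genes, by 0.63 and HHO2 by 0.62, while NAC4, a regulator of root responses to nitrate, rose by 0.61. Among cofactor genes CNX2 rose by 0.23 and RFNR2, a reductase that feeds electrons to root-type ferredoxin, by 0.21. MOT1, a molybdate transporter, had 7, 13 and 4 counts in the wild-type libraries and 0, 2 and 2 in the mutant (log2 fold change -2.43, edgeR adjusted p = 0.025). Like NRT1.5 it passed the filter through the overexpression libraries and was not tested with only the 6 wild-type and mutant libraries. Its call ended without wild-type replicate 2 (0.15) or mutant replicate 1 (0.10). SIRB, which acts in siroheme synthesis, had -0.25 (edgeR adjusted p = 0.046), a call that was lost under 11 of 17 alternatives, the highest adjusted p being 0.17.

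**Figure D5:**
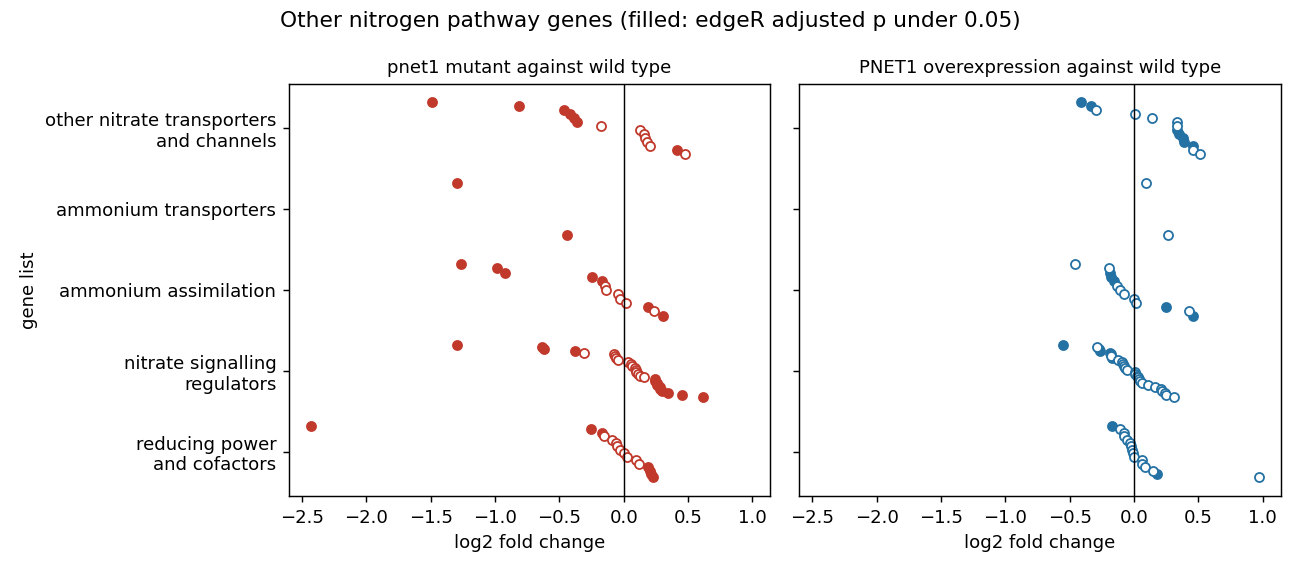
Log2 fold change against wild type of the 73 tested genes in 5 nitrogen lists, mutant on the left and overexpression on the right, 1 point per gene and filled where the edgeR adjusted p was under 0.05. In the mutant 37 points are filled, from -2.43 for MOT1 to 0.61 for NAC4; in the overexpression line 20 are filled.

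In the overexpression line 8 of the 73 genes rose and 12 fell (27.4%, against 11.2% of all genes), with a median log2 fold change of 0.0063. Of 14 transporters 5 rose and 2 fell, of 13 assimilation genes 2 rose and 3 fell, of 28 regulators 6 fell and 0 rose, of 16 cofactor genes 1 rose and 1 fell, and 0 of 2 ammonium transporters passed in edgeR. The count of 20 was 10 without wild-type replicate 2, 7 without wild-type replicate 3, 12 and 13 without mutant replicates 2 and 3, and 7 and 8 without overexpression replicates 2 and 3. It was 10 with only the 6 libraries compared. Over all genes the 2208 calls became 1498, 737, 1837, 1824, 1111 and 944 without the same libraries in that order. They became 1430 with only the 6 libraries compared.

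BT1, a relative of BT2, changed most among the regulators in that line. Its libraries had 59.3, 62.7 and 69.8 CPM in the wild-type libraries and 43.3, 43.8 and 44.0 in the overexpression line, a fall of 0.55 on the log2 scale (SE 0.060; adjusted p = 7.0e-05 in edgeR). The transporter genes NRT1.12 (0.46) and NRT1.4 (0.39) rose and NRT1.11 (-0.41) fell, and these calls and that of BT1 held under all alternatives tried. Of the 14 genes that the naming rule gave here, 10 passed as reported and lost the call under 1 to 14 of the 17 alternatives, at highest adjusted p values of 0.051 to 0.21. The called genes that the rule did not name were not followed through the alternatives one by one. The 10 were SLAH3 (log2 fold change 0.38), GLN2 (0.46), GLN1;2 (0.25), GDH1 (-0.19), GDH2 (-0.18), HHO3 (-0.27), TCP20 (-0.26), CBL1 (-0.18), RFNR2 (-0.17) and UPM1 (0.18).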

How the data were processed

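The mRNA of 9 callus libraries was sequenced as strand-specific libraries, per the labels' protocols. The deposited counts are raw counts per gene that the authors made. Tools listed in the submitters' processing notes, with no role stated, are HISAT2 (2.0.4) and HTSeq (0.6.1p1); the build listed is TAIR10. The sources used here do not state the annotation release, the strand setting or how reads with several matches were handled. The deposited FPKM values equal the authors' counts divided by gene length and by 1 library-wide constant, which was checked for genes of at least 20 counts. 0 rows name no gene.

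The counts entered edgeR (4.0.16, under R 4.3.3) after filterByExpr with a minimum count of 10 and a minimum total of 15, which kept 19698 genes. TMM scaling, 1 robust quasi-likelihood fit over all 9 libraries and 3 contrasts followed, with adjusted p under 0.05 as the threshold. CPM carry TMM factors, and SE is implied by the F statistic. Alternatives were other scalings, other filters, DESeq2 version 1.42.0, 6 libraries, the replicate number as a block and leaving out each library. Leaving out libraries for the reductase ratio was added after the data were seen. The steps were tested on simulated data.

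The members, the lists and the rule for named genes (up to 4 called members per list with the largest change) were chosen with earlier results of these data known. The window of 1000 bases for the element was set after a search of shorter promoters had found no match in the set. PNET1 was taken as AT1G07970 from background knowledge, and the mutant's columns were read as 1 allele with 3 replicates. Of 126 listed genes, 123 symbols were in the files or in RefSeq. Libraries of 1 genotype differed beyond counting noise (2.46 to 7.36 in chi-square over its degrees of freedom).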

Additional observations from a re-analysis of the deposited data

How the results depend on the processing

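Each of the 21 gene-by-comparison results of the tested nitrate genes was recomputed under up to 17 alternatives, 351 values in all. Direction and side of the threshold held in 331, a call ended in 4 (NRT1.5 in the mutant), a call was gained in 9 (overexpression against wild type) and the sign turned in 7. The turned signs were those of values near 0 that never passed: NIA1 in the overexpression line was 0.0045 with library totals only and 0.0029 with the 1 CPM filter, and leaving out 1 library gave -0.063 to 0.023 there and -0.092 to 0.053 for NIR1 in the mutant. The cause was not tested. The number of nitrate genes called in the mutant stayed between 5 and 7, and between 6 and 7 in overexpression against mutant. Over all genes the calls were 4552 to 6274 and 7342 to 8655 in these 2 comparisons. In overexpression against wild type it was 1 instead of 0 with DESeq2, with no filter, with the 1 CPM filter and with only the 6 libraries compared, and 0 to 2 when leaving out 1 library. The wider lists gave 10 instead of 20 calls with only the 6 libraries and 7 to 22 without 1 library, and all genes gave 1430 instead of 2208 and 737 to 3125.

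Same-numbered libraries did not deviate together (r between -0.176 and 0.0768, against -0.103 to 0.236 for other pairs), so the numbers are not taken as pairs. With the replicate number as a block, 6 nitrate genes were called in the mutant, 0 in overexpression and 7 between the lines. Of all 19698 genes tested, 5683, 1726 and 8366 passed in these comparisons. The 6 and the 7 include NRT1.5, which passed the filter through the overexpression libraries. They also include NRT2.3, for which 0 mutant libraries reached the filter's level. Among the named genes of the wider lists the block ended the calls of ASN1 (adjusted p = 0.055) and SIRB (0.067) in the mutant, of GLN2 (0.080), HHO3 (0.11), CBL1 (0.072), TCP20 (0.059) and UPM1 (0.081) in the overexpression line and of ASN1 between the lines (0.078). Scaling moved the median of all genes by at most 0.023 on the log2 scale, and the balance of calls moved too. In overexpression against wild type, 53.2% of all called genes rose as reported and 57.3% to 63.1% under other scalings. There the wider lists' 8 rises and 12 falls became 8 and 10 (RLE), 9 and 8 (upper quartile) or 10 and 7 (library totals). In the mutant 42% of all called genes rose as reported and 43.3% to 48.1% otherwise. The lists' 17 rises and 20 falls there became 19 and 19, 18 and 20 or 19 and 18. Few counts limit NRT1.5, NRT2.1, NRT2.5 and MOT1, and the series has 3 libraries per genotype from 1 time point.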

Other observations

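Between the overexpression line and the mutant, 46 of the 73 tested genes in the nitrogen lists passed in edgeR, 23 higher and 23 lower in the overexpression line. These are 63.0%, against 43.5% of all genes tested, 23.0% higher and 20.6% lower. Of 14 transporters 7 were higher and 3 lower, of 13 assimilation genes 6 and 4, of 28 signalling regulators 5 and 12, and of 16 cofactor genes 3 and 4, and both tested ammonium transporters were higher. NRT1.7 had a log2 difference of 1.82, AMT1;2 of 1.56, GLN2 of 1.45, CLCB of 1.28 and BT2 of 1.17. HRS1, a repressor that links nitrate and phosphate responses, was lower by a log2 difference of -0.74, and GLN1;4 by -0.69. MOT1, which is among the 23 higher, had 11, 14 and 22 counts in the overexpression line and 0, 2 and 2 in the mutant. These counts are given as a description, because the filter kept MOT1 through the overexpression libraries. With a filter of 1 CPM it was not tested between the lines. This comparison shares its libraries with those against wild type.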
